A study of Mus musculus with 4 samples.

Results

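The cytosolic ribosomal protein genes were examined for KDM5C binding in mouse epiblast-like cells (EpiLCs). They were taken as the protein-coding genes of the mm9 annotation (GENCODE M1) whose symbol is Rpl or Rps followed by a number, together with Rplp0, Rplp1, Rplp2 and Rpsa. Rps6k kinases (10 genes) and names ending in -ps (55 genes) were left out, and 84 of 22367 protein-coding genes remained. A gene was called bound when the midpoint of a KDM5C peak in wild-type cells lay within 1 kb of any of its annotated transcription start sites (TSSs). By this definition 34 ribosomal protein genes were bound and 50 were not.

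The data were KDM5C (also named SMCX) ChIP-Seq from cells labelled as day 2 EpiLCs. The methods place them 2 days past the EpiLC stage, while the labels describe culture up to that stage, and the sources do not settle which holds. The cells came from male embryonic stem cells of the C57BL/6J label, and all of them carried a deletion in Tsix on their X chromosome. The methods name another strain for the mutant mice and a mixed background for the Kdm5c strain, so the strain of the cells is not settled. One genotype kept Kdm5c (WT) and the other had lost it through a further deletion (KO), so the KO immunoprecipitate is a control for the antibody. The labels name 1 immunoprecipitate and 1 input per genotype, and each genotype has 1 list of peaks called by the authors against input. On assembled chromosomes there were 6916 WT peaks and 44 KO peaks. The score of a peak is 10 times the −log10 of its q-value as written by the peak caller MACS2, and its fold enrichment is the signal at the summit over background. The median score in the WT list was 82 and the 90th percentile was 320. Because a genotype is represented by a single list, spread between replicates could not be measured and WT and KO were not tested against each other. Intervals of a share of genes are exact 95% Clopper-Pearson intervals, and 95% intervals of a median are taken from the ranked scores. Both cover counting error over genes only, and read depth per list is not given in the peak files.

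Ribosomal proteins combine with ribosomal RNA to form the large subunit (Rpl genes) and the small subunit (Rps genes) of the ribosome that translates messenger RNA in the cytosol. Their genes are expressed in every growing cell, and most start from CpG-rich promoters, often at a C followed by a run of pyrimidines. KDM5C, encoded on the X chromosome, is an enzyme that erases methylation of histone H3 at lysine 4, a mark found at active promoters.

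The following 4 promoters are shown because they carried the 4 highest scores of the family, at Rps20, Rpl37a and the single-exon genes Rps4y2 and Rpl10l. Each runs 5′ to 3′ on the strand of the gene, from 100 bases before to 20 bases after the start of its 5′-most TSS, in build mm9 (NCBIM37), with every CpG in capitals.
Rps20, chr4:3762793-3762912, minus strand: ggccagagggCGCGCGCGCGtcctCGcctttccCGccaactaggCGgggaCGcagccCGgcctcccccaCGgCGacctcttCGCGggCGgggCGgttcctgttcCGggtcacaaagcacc
Rpl37a, chr1:72757734-72757853, plus strand: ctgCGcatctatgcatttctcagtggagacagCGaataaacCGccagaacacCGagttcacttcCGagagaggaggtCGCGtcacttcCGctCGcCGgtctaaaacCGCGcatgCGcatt
Rps4y2, chr6:148303078-148303197, plus strand: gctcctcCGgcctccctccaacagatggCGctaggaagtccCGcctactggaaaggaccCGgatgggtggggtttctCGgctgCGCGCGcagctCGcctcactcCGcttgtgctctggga
Rpl10l, chr12:67385369-67385488, minus strand: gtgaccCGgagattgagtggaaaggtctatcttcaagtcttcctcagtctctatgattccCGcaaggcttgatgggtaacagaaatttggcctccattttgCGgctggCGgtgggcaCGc
These stretches held 17 CpGs at Rps20, 13 at Rpl37a, 10 at Rps4y2 and 5 at Rpl10l.

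The sequence feature that differed most in frequency between bound and unbound ribosomal protein genes, among 5 motifs searched, was the E-box CACGTG. It was found in 9 of the 84 promoters in the window from 250 bases before to 50 bases after the 5′-most TSS. The occurrences at 8 of these genes are printed here with 12 bases on either side and the motif in capitals. The first 6 genes were bound and the last pair, Rpl23 and Rps2, were not.
Rps20, chr4:3762767-3762796, minus strand: cacccggatgcgCACGTGctttataagcgc
Rpl14, chr9:120480454-120480483, plus strand: ccaagctcactgCACGTGtctgaggagaag
Rpl30, chr15:34373556-34373585, minus strand: ctcccctcccacCACGTGggtttggaactc
Rpl34, chr3:130433454-130433483, minus strand: cacctaacttctCACGTGacgttcctaccg
Rpl19, chr11:97887993-97888022, plus strand: tacccagaggacCACGTGaccaaacgccct
Rplp2, chr7:148633135-148633164, plus strand: gcccacccagccCACGTGcaacaagaaaaa
Rpl23, chr11:97643739-97643768, minus strand: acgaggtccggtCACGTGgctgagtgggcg
Rps2, chr17:24854979-24855008, plus strand: tccatttgacagCACGTGtggactgacatc
CACGTG is its own reverse complement, so these matches count for both strands.

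Ribosomal protein genes were bound about as often as other CpG-rich promoters. Of the 84 genes, 40.5% were bound (95% interval 29.9 to 51.7), against 23.9% of all other protein-coding genes. A promoter was called CpG-rich when the 500 bp on either side of its 5′-most TSS had at least 50% GC and an observed to expected CpG ratio of at least 0.6. Of the 73 ribosomal protein genes with such a promoter, 32 were bound, or 43.8% (32.2 to 55.9). The share among the 9806 other CpG-rich protein-coding genes was 44.1% (43.1 to 45.1), which lies inside the interval of the ribosomal protein genes.

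The peaks at ribosomal protein genes were mostly of low score. Over the 34 bound genes the median score was 57.5 (quartiles 29.2 and 106), and 24 of the 34 scores lay under 100, or 70.6% (52.5 to 84.9), against 52.8% of other bound CpG-rich promoters. The median of the 4321 other bound CpG-rich promoters was 93 (quartiles 54 and 183). The 95% intervals of these medians, 31 to 99 and 91 to 98, overlapped. Without the 8 paralogues and single-exon genes (genes named as copies of another, or with 1 exon), the 30 remaining bound genes had a median of 54.5 with an interval of 31 to 74, below that of the other promoters. Genes of these kinds were not removed from the other promoters, so the 2 sides were not trimmed alike. The bound genes removed had scores of 367, 305, 263 and 12. The median fold enrichment was 3.16 for the ribosomal protein genes and 3.82 for the other bound CpG-rich promoters. A peak of at least the median score was found at 12 of the 73 CpG-rich ribosomal protein genes, or 16.4% (8.79 to 27.0), against 24.4% of the other CpG-rich genes. At the 90th percentile the count was 2 genes, Rps20 and Rps4y2, or 2.74% (0.334 to 9.55), against 5.55% of the others. Both of these background shares lie inside the interval of the ribosomal protein genes.

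**Figure D1:**
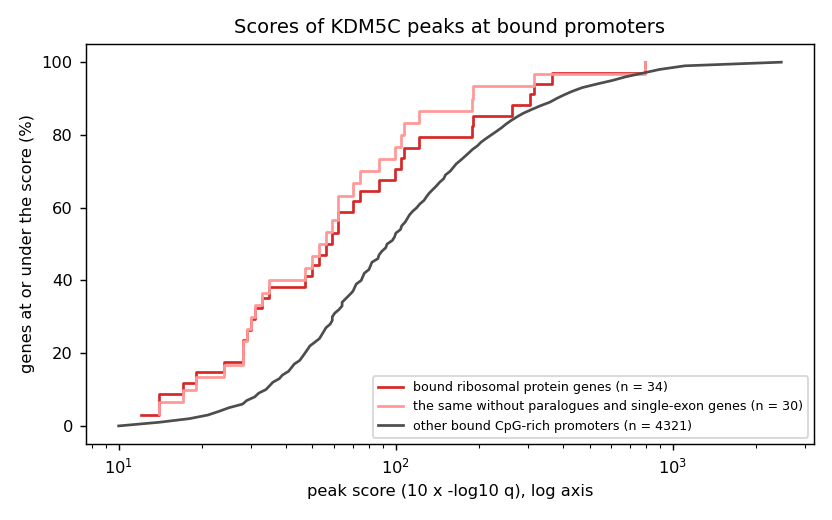
Cumulative distribution of the peak score (log axis, 10 times −log10 q) over the 34 bound ribosomal protein genes, over the 30 of them that are neither paralogues nor single-exon genes, and over 4321 other bound CpG-rich promoters. Paralogues and single-exon genes were not removed from the other promoters. The vertical axis is the percentage of genes at or under a score, and the curves of the ribosomal protein genes lie to the left over most of the range, with medians of 57.5 and 54.5 against 93.

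Rps20, which encodes a small-subunit protein, had by far the strongest peak of the family. Its peak (chr4:3762338-3763147, 810 bp wide) had a score of 793, a fold enrichment of 13.5 and a −log10 q of 79.4, and ranked 133 in the WT list, above 98.0% of peaks. The summit lay 14 bp upstream of a TSS and outside the gene. The next score in the family, at Rps4y2, was 367.

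Rps4y2, a single-exon gene named as a member of the Rps4 family, had a peak of 1091 bp (chr6:148302835-148303925) with a fold enrichment of 6.15 and a −log10 q of 36.8. Its summit was 107 bp downstream of the TSS and within the exon. Rpl37a, a large-subunit gene, followed with a score of 316 (chr1:72757389-72758446, 1058 bp, fold 6.12, −log10 q 31.6) and a summit 194 bp upstream. Rpl10l, the testis-expressed paralogue of the X-linked Rpl10, had a score of 305 in a peak of 650 bp (chr12:67384888-67385537). Its fold enrichment of 9.04 was the second highest in the family, its −log10 q was 30.6, and it ranked 738, above 89.3% of WT peaks. The Rpl10l summit lay 222 bp downstream of the TSS, inside its only exon. Rpl36al, a paralogue of the X-linked Rpl36a, had a score of 263 in the widest peak of the family at 1385 bp (chr12:70284638-70286022, fold 6.16, −log10 q 26.4). This peak is shared with Mgat2, a glycosyltransferase gene, and its summit, 439 bp upstream of Rpl36al, lay nearer to the Mgat2 TSS at 326 bp, so it cannot be assigned to either gene.

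The other genes described among the 10 strongest encode standard components of the ribosome. Rpl14 had a score of 190 (chr9:120480125-120480847, 723 bp, fold 4.96, −log10 q 19.1) with the summit 166 bp upstream. Rpl10a had a score of 121 (chr17:28465119-28466133, 1015 bp, fold 3.51, −log10 q 12.1) with the summit 4 bp upstream. Rpl27a, at 107, had the narrowest peak of the 10 (chr7:116662747-116663105, 359 bp, fold 4.05, −log10 q 10.8), with the summit 157 bp downstream. Rpl30, at 104 (chr15:34373092-34373830, 739 bp, fold 4.66, −log10 q 10.5), had its summit 34 bp downstream.

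The other bound genes fell in a continuous run of scores. Rpl34 (99) and Rps24 (87) were above the WT median of 82. Between 50 and 82 were, among others, Rpl36 (74), Rpl19 (62), Rps10 (62), Rps3a (59), Rps19 (56), Rpsa (53) and Rps29 (50). Rpsa encodes a small-subunit protein also known as the laminin receptor. Under 50 were 14 genes, among them Rps6 (47), Rps27a (35), Rpl22 (33), Rps23 (31), Rplp2 (30), Rpl12 (29), Rpl38 (28), Rps9 (28), Rpl35 (24), Rpl15 (19) and Rps12 (17). Rps27a encodes a small-subunit protein made as a fusion to ubiquitin, and its peak was shared with 1700034F02Rik.

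Among the lowest 3 scores were those of Rpl13 and Rpl22l1. Rpl13 had a score of 14 (chr8:125626199-125626552, 354 bp, fold 2.03, −log10 q 1.45). Its summit lay in an intron, 77 bp upstream of the nearest TSS of the gene, which was not the 5′-most one. Rpl22l1, a paralogue of Rpl22, had a score of 12 (chr3:28704116-28704637, 522 bp, fold 2.31, −log10 q 1.20) with the summit 30 bp upstream.

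**Figure D2:**
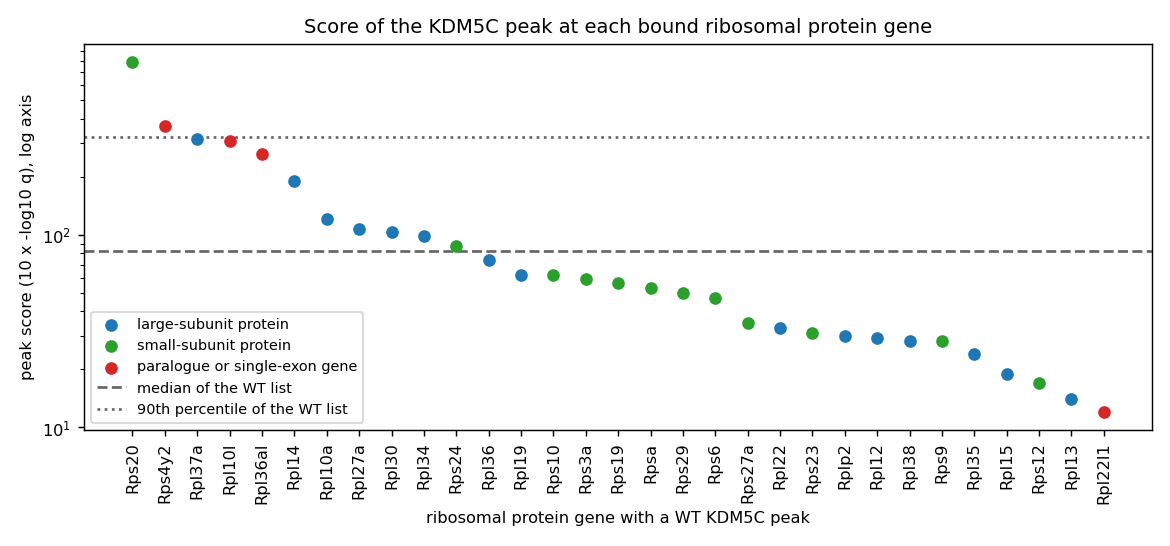
Score of the WT KDM5C peak (log axis) at 31 of the 34 bound ribosomal protein genes, coloured by subunit, with paralogues and single-exon genes marked apart. The dashed line is the median of the WT list (82) and the dotted line its 90th percentile (320), and Rps20 at 793 stands apart from the other genes.

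Both subunits were represented. Without the 8 paralogues and single-exon genes, 16 of 45 large-subunit genes were bound, or 35.6% (21.9 to 51.2), and 14 of 31 small-subunit genes, or 45.2% (27.3 to 64.0). The intervals overlapped widely, and the median scores of 47.5 and 54.5 were close. Of the acidic P proteins that form the stalk of the large subunit, Rplp2 was bound, and Rplp0 and Rplp1 were not. Fau and Gnb2l1, which encode ribosomal proteins under other names, had no peak.

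The 4 ribosomal protein genes on the X chromosome, Rpl10, Rpl36a, Rpl39 and Rps4x, were all unbound (0 of 4, interval 0 to 60.2%). Among the other CpG-rich genes on the X chromosome 27.1% were bound. Rpl10 and Rps4x were not CpG-rich at any TSS. Each of these genes has an autosomal family member, a grouping made after the values were seen. Of these, Rpl10l had a score of 305 and Rps4y2 of 367, the peak of 263 near Rpl36al is the one shared with Mgat2, and Rpl39l, whose promoter was not CpG-rich, had no peak. The single-exon genes Rpl10l and Rps4y2 were both bound. Their promoters were CpG-rich, a class in which 44.1% of other protein-coding genes were bound. Of 2843 other single-exon protein-coding genes, taken whatever their CpG content, 9.22% were bound. The other paralogues Rpl3l, Rpl7l1 and Rps27l were unbound. In all, 4 of the 8 paralogues and single-exon genes were bound, or 50.0% (15.7 to 84.3), with a median score of 284. Without Rpl36al 3 of 7 were bound, with a median of 305.

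Promoter CpG content separated the genes only in part. The median CpG ratio was 0.838 at bound and 0.769 at unbound ribosomal protein genes. All CpG-rich promoters were divided into 4 bands at CpG ratios of 0.704, 0.786 and 0.875. In the lowest band 0 of 6 ribosomal protein genes were bound (interval 0 to 45.9%), followed by 9 of 21 (42.9%), 10 of 23 (43.5%) and 13 of 23 (56.5%). The other CpG-rich genes rose through the same bands from 35.8% to 41.9%, 46.9% and 51.7%, each inside the interval of the ribosomal protein genes. In the upper 3 bands the median scores of the bound ribosomal protein genes were 31, 63 and 62, below the 90.5, 93 and 104 of the other genes.

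At their 5′-most TSS 11 ribosomal protein genes were not CpG-rich, a class in which 8.04% of other protein-coding genes were bound. Of these, Rps9 and Rps10 were bound, and Rpl4, Rpl10, Rpl13a, Rpl18, Rpl23a, Rpl39l, Rpl3l, Rps2 and Rps4x were not. Both Rps9 and Rps10 were CpG-rich at another annotated TSS. The 5 genes that were CpG-rich at no TSS (Rpl10, Rpl39l, Rpl3l, Rpl4 and Rps4x) were all unbound, in a class where 5.20% of other genes were bound, so the count of 0 of 5 is near the background.

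**Figure D3:**
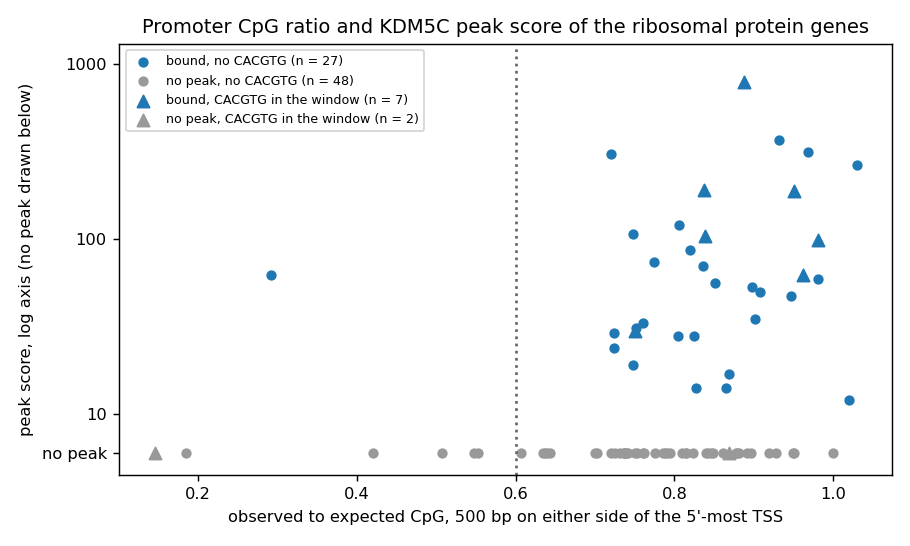
Observed to expected CpG ratio around the 5′-most TSS (horizontal) and WT peak score on a log axis (vertical) for the 84 ribosomal protein genes, with unbound genes on a line of their own at the bottom. Triangles hold CACGTG, 7 of them bound and 2 not, and the dotted line is the ratio of 0.6 required of a CpG-rich promoter.

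Ribosomal protein genes with the E-box shown above were bound in 7 of 9 cases, or 77.8% (40.0 to 97.2), and those without it in 27 of 75, or 36.0% (25.2 to 47.9). The intervals overlapped. Among other CpG-rich genes 56.5% of those with the motif and 42.5% of those without it were bound. The bound genes with the motif, among them Rps20, Rpl14, Rpl30, Rpl34, Rpl19 and Rplp2, had a median score of 104, against 50 for the bound genes without it. Among other bound CpG-rich genes these medians were 116 and 91. A peak of at least the median score was found at 5 of the 9 genes with the motif and at 7 of the 75 without it, against 36.0% and 23.0% of other CpG-rich genes. All 7 motifs lay inside the peak of their gene. The motif window and the definition of a bound gene both lie close to a TSS, so such overlap is partly set in advance. How often other motifs, or the E-box at other bound genes, lay inside a peak or near its summit was not counted. The motif centre was 1 bp from the summit at Rpl34, 2 bp at Rpl14, 45 bp at Rps20, 59 bp at Rpl19, 209 bp at Rpl30 and 244 bp at Rplp2. The motif was about as frequent in the family as in other CpG-rich promoters. It was found in 10.7% of ribosomal protein promoters, 11.2% of other CpG-rich promoters and 7.78% of all protein-coding promoters. A match describes letters in the window and not a bound factor.

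The other motifs searched on both strands occurred at similar rates in bound and unbound genes. GGGCGG was found in 48.8% of ribosomal protein promoters, against 73.1% of other CpG-rich promoters and 43.4% of all protein-coding promoters. Genes with it were bound in 43.9% of cases and genes without it in 37.2%. CCGGAAG was found in 28.6% of the family, 18.7% of other CpG-rich promoters and 10.8% of all promoters. For ATGGCG these shares were 26.2%, 16.6% and 10.5%, and for CTCGCGAG 8.33%, 2.38% and 1.18%. Genes with these motifs were bound in 37.5%, 40.9% and 42.9% of cases, and genes without them in 41.7%, 40.3% and 40.3%. A higher median score with the motif was not particular to the E-box. Bound genes with ATGGCG had a median of 107, against 47 without it, and bound genes with CTCGCGAG 107 against 56. For CCGGAAG the medians were 59 and 56, and for GGGCGG 54.5 and 60.5. Peaks of at least the median score were found at 27.3% of genes with ATGGCG and 9.68% without it. A pyrimidine start, scored as a C followed by at least 4 pyrimidines, was found at some TSS of 25 of the 84 genes (29.8%), against 7.19% of other CpG-rich genes. A gene with more annotated TSSs has more chances of such a match, and this was not corrected for. At the 5′-most TSS alone, the start was found at 3 of the 84 genes (3.57%) and at 206 of the 9806 other CpG-rich genes. Of genes with such a start at some TSS 40.0% were bound, and of genes with none 40.7%. Small nucleolar RNAs lay inside 30 genes, of which 36.7% were bound, against 42.6% of the rest.

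Since a midpoint within 1 kb of a TSS was required, the distance of the peaks from the TSS is limited by the definition. Over the 34 bound genes the median summit was 86 bp downstream of the nearest TSS of the gene (quartiles −30 and 158, range −439 to 481). Summits within 200 bp of a TSS were found at 25 genes, or 73.5% (55.6 to 87.1), against 58.0% (56.5 to 59.5) of other bound CpG-rich genes, a share that lies inside the interval of the ribosomal protein genes, and 21 summits (61.8%) were downstream, against 59.7%. The summit fell in an exon at 14 genes, in an intron at 9 and outside the gene at 11. The median offset varied with the definition. It was 145 bp when only the 5′-most TSS was used, 53.5 bp with a 500 bp window, −9 bp among the 12 genes of at least the median score and 46.5 bp between the 2 genes past the 90th percentile.

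**Figure D4:**
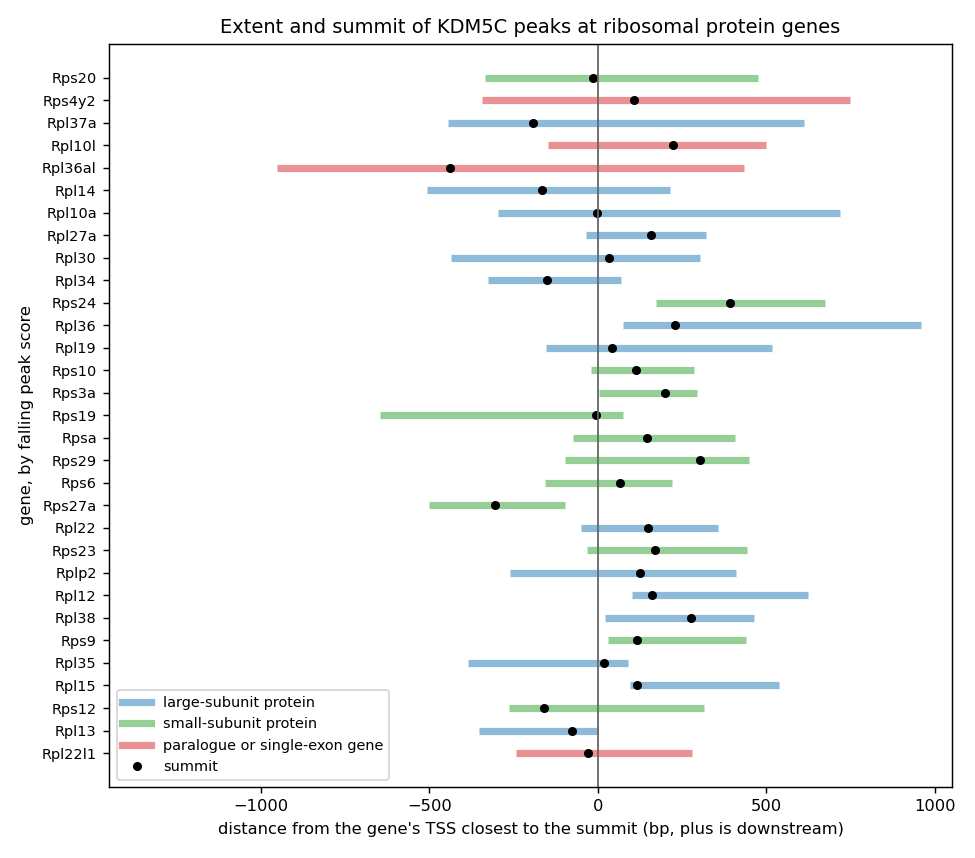
Extent (bars) and summit (black points) of the peak at 31 of the 34 bound ribosomal protein genes, by distance in bp from the TSS of the gene closest to the summit, with downstream to the right and genes ordered by falling score. Summits drawn range from −439 bp at Rpl36al to 393 bp at Rps24, and 24 of the 31 lie within 200 bp of the TSS.

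Each bound gene had a peak of its own, 34 in all. In 12 cases, or 35.3% (19.7 to 53.5), the midpoint was also within 1 kb of a TSS of another gene, against 29.0% of other bound CpG-rich genes. In 4 of them this was a protein-coding gene (Mgat2, 1700034F02Rik, Lrsam1 at Rpl12 and Nkiras1 at Rpl15). The 4 cases were 11.8% of the bound genes (3.30 to 27.5), against 21.3% of other bound CpG-rich genes. Only the summit at Rpl36al was nearer to another gene, or 2.94% (0.0744 to 15.3), against 13.2% of other bound CpG-rich genes. The background shares of this paragraph all lie inside the intervals of the ribosomal protein genes.

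Among the 50 unbound genes, 7 had a WT peak midpoint between 1 and 5 kb from a TSS. Rpl7 at 1047 bp (score 49) and Rps18 at 1101 bp (score 115) were just outside the limit. Rpl13a was 2315 bp from the nearest midpoint. A single peak of score 28 lay 2710 bp from Rps2 and 3670 bp from Rpl3l. Rpl7a was 3793 bp from a peak of score 55, and Rpl28 was 3805 bp from a peak of score 145.

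Ribosomal protein genes are present in many processed copies, and only uniquely mapped reads were used by the authors. Of all 50-base reads that could start in the 1 kb windows of a gene, a median of 95.5% matched the genome once at bound genes and 95.7% at unbound genes. Only exact matches were counted, while the authors' mapping allowed mismatches. The shares may therefore be too high where copies differ by few bases. The lowest window was 78.4% at Rpl37a and the lowest peak 74.8% at Rpl36, both of them bound.

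No ribosomal protein gene had a peak in the KO list. The closest KO midpoint was 119084 bp from a TSS of the family. Of the 9806 other CpG-rich genes, 11 had a KO peak. KO peaks were so rare at promoters that finding none in a family of this size says little about the antibody at these genes. The methods describe 1 KO immunoprecipitate and more than 1 WT line, so the WT list may pool immunoprecipitates. Which libraries entered each list could not be settled from the sources, and the numbers of WT and KO peaks are not comparable in depth.

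Listed genes of ribosome assembly were bound more often than genes for ribosomal proteins. The list was chosen by name with earlier results of these data known, and the difference was not tested. For background, 44.1% of other CpG-rich genes and 23.9% of all other protein-coding genes were bound. Of 46 genes of ribosome assembly and ribosomal RNA synthesis, 33 were bound, or 71.7% (56.5 to 84.0), an interval that does not overlap the 29.9 to 51.7% of the ribosomal protein genes. Their median score was 134, and Mrto4 (1101), Ebna1bp2 (383), Rrp9 (362), Rrs1 (353) and Nop56 (346) led. CACGTG was found in 12 of the 46 promoters (26.1%), of which 10 were bound, and 23 of the 34 promoters without it were bound too. The mitochondrial ribosomal protein genes, which serve the separate ribosome of the mitochondrion, were bound in 26 of 77 cases, or 33.8% (23.4 to 45.4), with a median score of 84.5. The highest were Mrpl23 (678), Mrpl36 (508), Mrps26 (433), Mrpl13 (149) and Mrps9 (133). Translation factor genes were taken by symbol, as Eif or Eef followed by a number, with kinases and binding proteins left out. Most encode initiation and elongation factors, but the list also holds the Argonaute genes Eif2c1 to Eif2c4. Of the 57 genes so taken, 20 were bound, or 35.1% (22.9 to 48.9), with a median of 84.5. They were led by Eif5a2 (1089), Eef1d (242), Eif3a (197), Eif4b (180) and Eif3b (141).

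**Figure D5:**
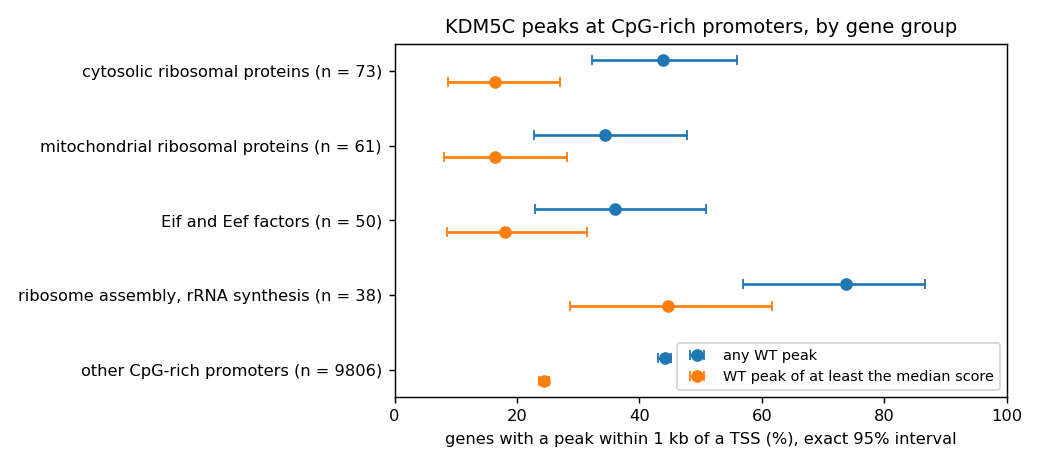
Percentage of genes with a WT KDM5C peak within 1 kb of a TSS (blue) and with one of at least the median score (orange), for the CpG-rich genes of each group, with exact 95% intervals as bars. Ribosome assembly genes (73.7% bound) stand to the right of cytosolic ribosomal protein genes (43.8%), which lie beside other CpG-rich promoters (44.1%).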

How the data were processed

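KDM5C ChIP-Seq peak lists from WT and KO EpiLCs were used as deposited. Per the methods and the submitters' processing notes, the authors mapped 50-base single-end reads to mm9 with Bowtie (1.1.2 in the notes, another version in the methods), kept unique reads, and called peaks with MACS2 2.1.0.20140616 against input, filtered on q-value and fold enrichment. The deposited values are a score per peak, the fold enrichment (a ratio) at the summit, the −log10 of the p-value and q-value, and the summit offset; the p-value was not used. The methods describe replicate lines for WT and a single KO sample, the series text technical duplicates, and the labels 1 immunoprecipitate per genotype. The study states a minimum read number per library, but depth per list cannot be read from files without counts.

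Peaks on assembled chromosomes were set against GENCODE M1 TSSs (NCBIM37, the same assembly as mm9) in Python 3.11.15 with NumPy 2.4.6, SciPy 1.17.1 and pysam 0.24.0. The binding call was tested on simulated peaks. No test between conditions was run. Where a gene had several peaks the highest score was used. Rps19bp1, a binding partner, was not counted as a ribosomal protein gene. Unique 50-base reads were counted by exact match to the genome. Bound genes are named, apart from items not reported here, with full values for the highest 10 and lowest 3, along with paralogues, X-linked genes, P proteins, genes without a CpG-rich promoter and near misses. Members and lists were chosen with earlier results of these data known. Alternatives covered the TSS window, TSS choice, peak position, score and fold limits, CpG limits and paralogues.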

Additional observations from a re-analysis of the deposited data

How the results depend on the processing

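Of 79 alternative values over 8 results, 55 stayed within counting error or, for counts, near the first value, 22 moved further and 2 reversed. The share of other CpG-rich genes bound (44.1%) became 40.5% with a 500 bp window, 46.8% with 5 kb, 43.0% at the 5′-most TSS and 49.2% under stricter CpG limits. With only peaks of at least the median score, 12 ribosomal protein genes were bound, 16.4% of the CpG-rich ones against 24.4% of other CpG-rich genes, 18.2% of mitochondrial ribosomal protein genes and 17.5% of translation factor genes, with a median score of 190 and a median summit of −9 bp in place of 86. At the 90th percentile these values were 2 genes, 2.74%, 5.55%, 3.90% and 1.75%, with a median score of 580 and a median summit of 46.5 bp. With a fold enrichment of at least 4 they were 9 genes, 12.3%, 19.8%, 9.09% and 10.5%, with a median score of 263 and a median summit of −14.0 bp. The median summit was also 145 bp at the 5′-most TSS and 53.5 bp with a 500 bp window, within counting error of 86. The changes under score and fold limits follow from keeping fewer peaks. Calling promoters CpG-rich at any TSS, an alternative chosen after seeing the data, gave 43.0% for ribosomal protein genes against 43.6% for the others. No paired analysis was possible because WT and KO are each represented by a single list. Without counts or replicates, a gene without a peak may be bound below the limit of detection, and low scores cannot be separated from variation between samples.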
